A study of Rattus norvegicus with 3 samples.

Results

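The SNAIL, TWIST and ZEB genes encode the transcription factors that drive the epithelial-mesenchymal transition (EMT). They were examined here in rat induced pluripotent stem (iPS) cells against adult rat cells. The 6 genes, Snai1, Snai2, Twist1, Twist2, Zeb1 and Zeb2, were found by name among the 35561 gene names of a whole-genome rat array, on which Zeb1 is written Tcf8 and Zeb2 is written Zfhx1b. They had 9 of its 41012 probes, with a pair each for Snai1, Twist1 and Zeb1, and each probe was printed as 1 spot. The 3 samples, all untreated, were cells of the iPS line M13, grown in embryonic stem cell medium with serum on irradiated mouse embryonic fibroblast feeders. Each was labelled with Cy3 and hybridised on its own two-colour array against the same RNA labelled with Cy5. That RNA, mix1, combined rat bone marrow cells in culture with primary fibroblasts from the rat ear. iPS cells are made by reprogramming adult cells to pluripotency. Whether the 3 samples are separate cultures is not given in the labels, and p-values therefore cover just the spread among them, which may be technical.

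In EMT, epithelial cells give up their junctions and take on the motile, matrix-producing form of mesenchymal cells. SNAIL and ZEB proteins are zinc finger repressors that bind E-box sequences in promoters such as that of the E-cadherin gene Cdh1. TWIST proteins are basic helix-loop-helix (bHLH) factors that bind E-boxes as dimers with E proteins and are blocked by ID proteins. Fibroblasts are mesenchymal and commonly express several of these factors. Reprogramming of fibroblasts involves the reverse change, in which epithelial junction genes come on.

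The probe sequences are shown because they set which transcripts each measurement can tell apart. All are 60 bases long, 5′ to 3′, as deposited. Capitals in the TWIST probes mark the bases that Twist1 probe b and the Twist2 probe share when aligned without gaps, and capitals in the Snai1 and Zeb1 probes mark 2 cysteine codons 6 bases apart in an open reading frame, the spacing found in many zinc fingers. Within a pair, a is the brighter probe and b the dimmer one.
Snai1 probe b: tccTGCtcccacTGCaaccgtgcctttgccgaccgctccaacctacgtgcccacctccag
Snai2 probe: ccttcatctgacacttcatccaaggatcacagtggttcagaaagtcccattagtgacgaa
Twist1 probe b: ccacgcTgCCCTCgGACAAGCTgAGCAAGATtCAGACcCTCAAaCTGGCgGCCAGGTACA
Twist2 probe: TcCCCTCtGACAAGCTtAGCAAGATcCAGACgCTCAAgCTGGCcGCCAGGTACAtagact
Zeb1 probe b: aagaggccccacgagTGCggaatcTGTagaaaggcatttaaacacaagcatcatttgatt
Zeb2 probe: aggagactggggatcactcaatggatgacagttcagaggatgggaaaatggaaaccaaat
Twist1 probe b and the Twist2 probe had 47 identical bases over 54 aligned ones (87.0%), with a longest shared run of 10 bases. Cross-hybridisation between these paralogs was not tested. No other pair of the 9 probes had more than 18 identical bases. The cysteine codon pattern occurred in 3.05% of the 41012 probes on the array, so it is not particular to these genes.

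On each of the 3 arrays, iPS M13 was below mix1 at all 9 probes of the 6 factors. Snai1 probe a had the lowest ratio and Zeb2 the one nearest to 0 after loess, while the other Snai1 probe lay above both TWIST genes. The test was limma's on the log2 ratio of iPS M13 over mix1 against 0, with Benjamini-Hochberg adjustment over 24178 probes, and a call needed at least a 2-fold difference besides an adjusted p under 0.05. By that rule 25.1% of all probes tested were called lower and 18.5% higher (43.6% in either direction), against 9 and 0 of the 9 EMT factor probes. Of these 9, Snai2 and Twist2 were well above background on all 3 arrays in mix1 alone. The other 7, above background in both RNAs, were all called lower. Of 18846 probes above background in both RNAs, 4052 were called lower and 3073 higher. The minimum fold decided most calls, since 96.0% of all probes passed the adjusted p alone. Because mix1 was 1 control RNA, its own spread did not enter the test. Cy3 always held iPS M13, so the dye and the group cannot be told apart. In bulk RNA, fewer cells of a type and less RNA per cell cannot be told apart either.

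The fold of each call also depends on how an array was scaled. After loess, the median log2 ratio of all tested probes was -0.02 and 42.5% of all calls were higher in iPS M13. Median centring moved that median up by 0.60 and gave 67.8% of calls as higher, no within-array normalization moved it by 0.54 (65.7%), and the scanner software's processed signals by 0.31 (56.9%). The cell labels were checked on marker genes. Of 8 fibroblast and 8 myeloid markers all were called lower in iPS M13, and of 4 measured pluripotency markers 3 were called higher. In the iPS M13 channel 6 of the 8 fibroblast markers were still well above background on all 3 arrays, and Thy1 and Postn were not above it on any. Summed over the fibroblast markers, the signals ran from 8961 to 9900 in iPS M13 and from 1183051 to 1328486 in mix1. Of the 8 myeloid markers, 6 likewise stayed well above background in Cy3 throughout. Their summed signals ran from 4685 to 5054 in iPS M13 and from 182767 to 214171 in mix1. Hybridisation of feeder RNA to rat probes, the EMT factor probes included, was not tested.

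**Figure D1:**
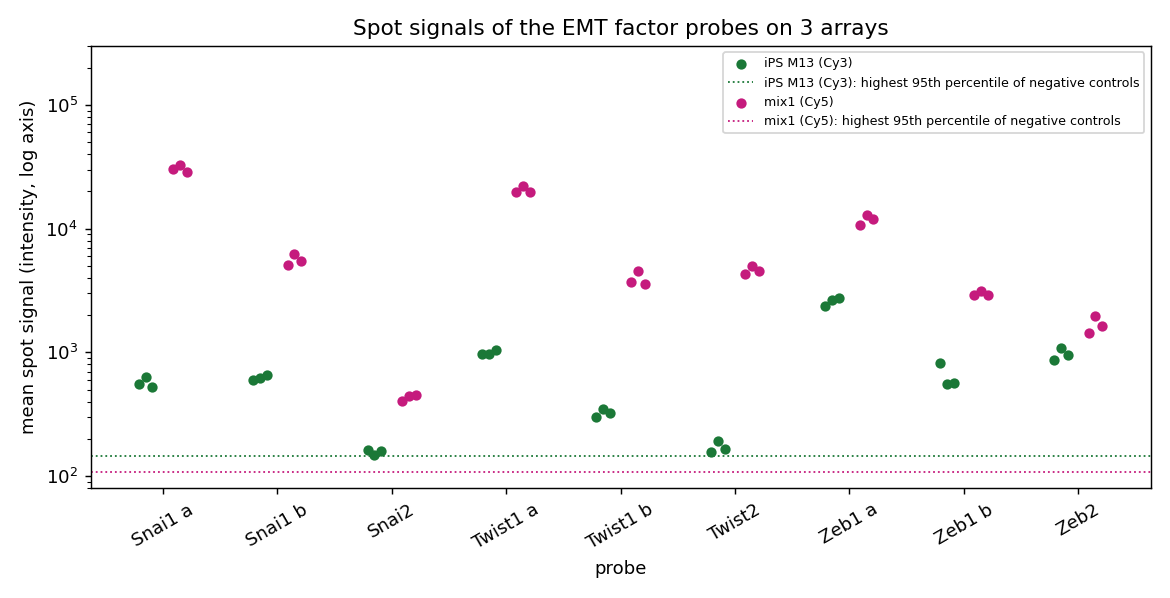
Mean spot signal (intensity, log axis) of each EMT factor probe on the 3 arrays, for iPS M13 in Cy3 and mix1 in Cy5, with dotted lines at the highest 95th percentile of negative control spots in each channel, 144 in Cy3 and 108 in Cy5. The channels do not overlap for any probe, and the iPS M13 signals of Snai2 and Twist2 lie close to the Cy3 line.

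Snai1, a zinc finger repressor of E-cadherin, was measured by probe a (A_44_P899293, chr3:158587424-158587483 on the plus strand of build rn3) and probe b (A_44_P328087, chr3:158586613-158586672). Spot signals of probe a in mix1 were 30377, 32493 and 28698 on replicates 1, 2 and 3. In iPS M13 they were 551, 628 and 526. The log2 ratios were thus -6.63, -6.41 and -6.69, with a mean of -6.58 ± 0.15 (SD, n = 3), or 95.4-fold lower (limma adjusted p = 1.76e-06). Only 0.827% of all tested probes had a ratio as low or lower.

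Probe b of Snai1 gave a smaller difference. Its signals were 5088, 6261 and 5465 in mix1 and 593, 624 and 652 in iPS M13, so that iPS M13 was low on every array here too. The ratios of -3.93, -4.01 and -3.96 had a mean of -3.96 ± 0.04 (SD, n = 3), or 15.6-fold lower (limma adjusted p = 7.55e-07). Within arrays, the log2 ratio of probe a minus that of probe b was -2.70, -2.40 and -2.73.

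Such a gap was rare among all pairs of probes of 1 gene on these arrays. Of 3424 pairs of probes that share a symbol and were measured in both RNAs, 0.672% differed by as much, and the median pair differed by 0.35. Those pairs were of any ratio, and were not limited to genes as strongly lower as Snai1. Among strongly lower genes, probes of Col1a1 were at -7.09 and -10.91, and those of Fn1 at -6.45 and -6.89. The starts of the Snai1 probes are 811 bases apart. Probe a has a GC content of 21.7% and a stop codon in each of its 3 forward reading frames, and probe b has a GC content of 65.0% and no stop codon in any of them. Removing the dependence of ratios on GC content, fitted over all probes, moved the pair further apart, to -7.43 and -3.13. The size of the Snai1 difference therefore depends on the probe, while its direction was the same in both.

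Snai2, also called Slug, is the close relative of Snai1 known from neural crest and fibroblasts. Its 1 probe (A_44_P503261), which has no position in the files, gave mix1 signals of 406, 440 and 456 and iPS M13 signals of 161, 148 and 158. The mix1 signal was well above background on all 3 arrays and the iPS M13 signal on 0. The ratios were -1.84, -1.85 and -2.10, with a mean of -1.93 ± 0.15 (SD, n = 3; limma adjusted p = 3.81e-05). As iPS M13 was not well above background, Snai2 is given as at least 3.49-fold lower after loess. For this the dim level was taken at no less than the lowest signal well above background on its array. Other scalings gave less than that bound, with ratios of -1.65 under median centring and -1.71 without within-array normalization. With the scanner software's processed signals, in which both background and dye balance were treated differently, the ratio was -3.08. The size of the Snai2 difference thus depended on the processing.

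Twist1, a bHLH factor of mesoderm and neural crest, was lower from both of its probes, and no array overlapped between the RNAs. Its probe a (A_44_P200042, chr6:52610600-52610659, plus strand) had signals of 19650, 21968 and 19650 in mix1 and of 970, 973 and 1046 in iPS M13. The ratios of -5.17, -5.20 and -5.13 averaged -5.17 ± 0.04 (SD, n = 3), or 36.0-fold lower (limma adjusted p = 6.00e-07). Probe b (A_44_P330417, chr6:52609582-52609641), printed above, had signals of 3679, 4550 and 3577 in mix1 and of 298, 348 and 326 in iPS M13. Its ratios of -4.43, -4.35 and -4.31 averaged -4.36 ± 0.06 (SD, n = 3), or 20.5-fold lower (limma adjusted p = 9.30e-07). The probes start 1018 bases apart and differed by -0.81 ± 0.06 (a minus b, SD, n = 3), a gap that 15.4% of the pairs of probes of 1 symbol reached.

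Twist2, also called Dermo1 and known from dermal fibroblasts, was measured by A_44_P407132 (chr9:91221505-91221564, plus strand). It had signals of 4315, 4953 and 4525 in mix1. In iPS M13 the signals were 157, 191 and 167, and only the one of replicate 2 was well above background. The ratios of -5.59, -5.31 and -5.65 averaged -5.52 ± 0.18 (SD, n = 3; limma adjusted p = 3.90e-06). With iPS M13 this dim, the size is uncertain: the processed signals gave -6.46 and median centring gave -4.83. Twist2 and Snai2 were kept through mix1 alone, so the filter on dim probes favoured a difference for them.

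Zeb1, a zinc finger and homeodomain repressor of epithelial genes, was lower by a like amount from both of its probes. Probe a (A_42_P688802, chr17:60186471-60186530, minus strand) had signals of 10753, 12910 and 12033 in mix1 and of 2376, 2639 and 2763 in iPS M13. Its ratios of -3.00, -2.99 and -3.01 averaged -3.00 ± 0.01 (SD, n = 3; limma adjusted p = 6.05e-07). Probe b (A_44_P153979, chr17:60188538-60188597, minus strand), which starts 2067 bases away, had signals of 2934, 3138 and 2935 in mix1. In iPS M13 its signals were 823, 556 and 565, and replicate 1 stood above the others. Its ratios of -2.65, -3.14 and -3.25 averaged -3.01 ± 0.32 (SD, n = 3), or 8.06-fold lower (limma adjusted p = 9.15e-05). The difference between the probes, 0.01 ± 0.32, was smaller than its spread over arrays.

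Zeb2, the paralog of Zeb1, had the smallest difference. Its probe (A_44_P1057427, chr3:25409422-25409481, minus strand) had signals of 1444, 1968 and 1619 in mix1 and of 861, 1086 and 959 in iPS M13. The ratios of -1.51, -1.53 and -1.61 averaged -1.55 ± 0.05 (SD, n = 3), or 2.93-fold lower (limma adjusted p = 5.08e-06). This call ended under median centring (-0.77) and without within-array normalization (-0.83), where the ratio no longer reached 2-fold. Relative to the median of all probes it was -1.53 after loess and -1.35 under both of those settings. The other 8 probes stayed called lower in every setting in which they were tested.

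**Figure D2:**
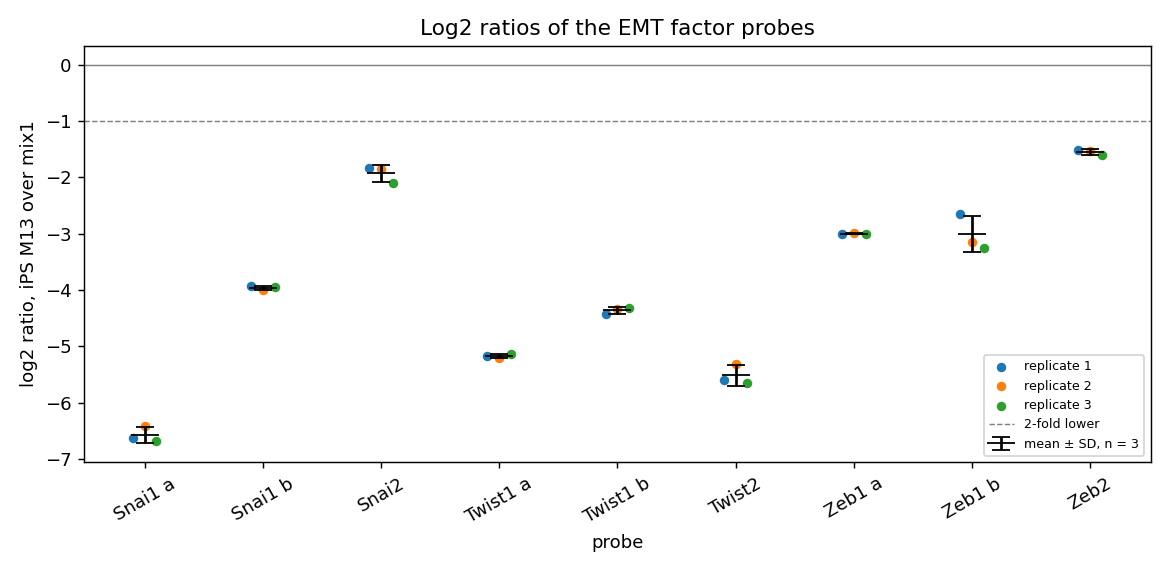
Log2 ratio of iPS M13 over mix1 for each EMT factor probe, with 1 point per array and bars for the mean ± SD (n = 3); the dashed line marks a 2-fold difference. The points run from -6.69 for Snai1 probe a to -1.51 for Zeb2, and only the Zeb1 probes overlap.

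Among the 7 probes well above background in both RNAs on all 3 arrays, Snai1 probe a had the lowest ratio, followed by Twist1 a, Twist1 b, Snai1 b, the Zeb1 probes and Zeb2. Neighbours in this order did not overlap between arrays, apart from the Zeb1 pair. Twist2 and Snai2, dim in iPS M13, have no definite place in it. With the processed signals Twist2 (-6.46) and Snai1 probe a (-6.44) were nearly equal and Snai2 (-3.08) came before both Zeb1 probes (-2.65 and -2.86). With the GC trend taken off Twist1 probe a (-5.55) came before Twist2 (-4.93), and Zeb1 probe a (-3.38) before Snai1 probe b (-3.13). The background correction added an offset of 50, and with an offset of 16 the ratios of Snai2 and Twist2, the dimmest in iPS M13, were -2.24 and -5.88.

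**Figure D3:**
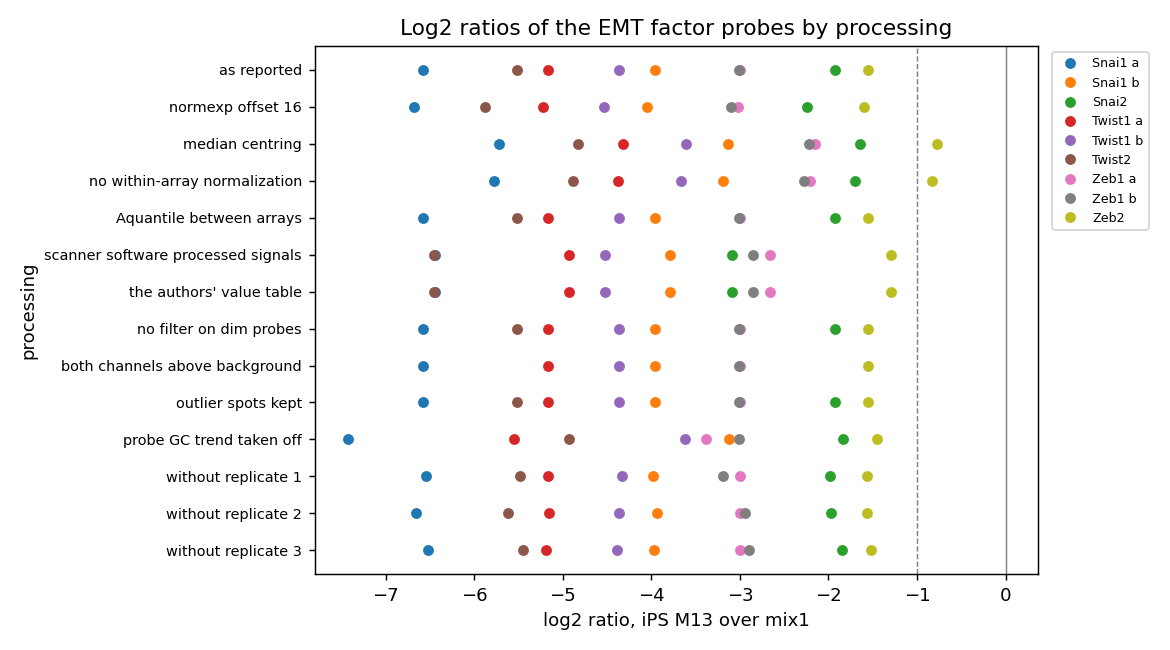
Log2 ratio of iPS M13 over mix1 of each EMT factor probe under each processing; the dashed line marks 2-fold lower, and Twist2 and Snai2 have no value where both channels had to be above background. Every point lies below 0, and only Zeb2 crosses the 2-fold line, at -0.77 and -0.83.

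The genes nearest to each factor in log2 ratio were sought among 8975 genes measured in both RNAs on all arrays, by the root mean square difference over the 3 arrays. Each gene was read from its brightest kept probe, which is probe a for Snai1, Twist1 and Zeb1. The genes nearest to Snai1 probe a were Loxl1 (0.08), a crosslinking enzyme of elastic fibres, Copz2 (0.09) and Gsdmd (0.10). Snai1 probe b, at -3.96, was not compared. Twist1 was nearest to Rab31 (0.04), Epb41l1 (0.05) and C1qtnf6 (0.06), and Twist2 to Angptl2 (0.09), Ntm (0.12) and the peptide hormone gene Adm (0.13). Nearest to Zeb1 were Sv2b (0.01), Rcn1 (0.02) and Fam20c (0.02). Zeb2 was nearest to Rab3gap2 (0.01), Asph (0.01) and Dhrs3 (0.02), and Snai2 to Htr2a (0.07), Snx18 (0.08) and Sh2d3c (0.09). With 3 arrays of 1 comparison this likeness says only that the ratios were of similar size.

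Signals that induce EMT, read from the brightest kept probe of each gene, were mostly lower. Of 15 measured genes of 17, 10 were called lower and 1 higher, with a median log2 ratio of -3.76, against 25.4% lower, 18.8% higher (44.2% in either direction) and a median of -0.02 over all 20346 genes. The ligand gene Tgfb3 was at -7.05 ± 0.06 and Tgfb1 at -5.87 ± 0.05, with iPS M13 above background on 1 of 3 arrays for Tgfb1. Their receptor gene Tgfbr2 was at -2.40 ± 0.12 and the growth factor receptor gene Pdgfrb at -7.22 ± 0.03 (SD, n = 3). Wnt5a was at least 106-fold lower. Tgfbr1 (0.26 ± 0.03) and the signal transducers Smad2 (0.31 ± 0.01) and Smad4 (0.71 ± 0.02) were not called. The 1 gene called higher was Met, the receptor of hepatocyte growth factor, with a bound of 1.91-fold higher. Its call ended without replicate 3. In mix1 the lowest log2 level well above background was 4.72 on replicate 2, against 7.35 and 7.14 on replicates 1 and 3. Bounds of genes dim in mix1 are therefore loose and not a true minimum. A gene counted as measured only if 1 of the RNAs was well above background, which favours differences in every list.

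The bHLH partners and inhibitors of the TWIST factors were lower as well. Of 7 measured, 6 were called lower and 0 higher, against 25.4% and 18.8% of all genes. The median of the 7 was -1.96. Among the E proteins, which dimerise with TWIST, Tcf4 was at -2.27 ± 0.01 and Tcf12 at -1.08 ± 0.01, while Tcf3 (-0.44 ± 0.01) was not called. All 4 ID genes were called lower, from Id1 (-1.70 ± 0.03) and Id2 (-1.96 ± 0.01) to Id4 (-3.99 ± 0.01) and Id3 (-5.86 ± 0.05). Median centring left 4 of the 7 called lower (median -1.19), as did no within-array normalization (median -1.25), and the processed signals left 5.

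Other EMT transcription factors had 5 of 7 measured genes called lower and 0 higher, against 25.4% and 18.8% of all genes. The median of the 7 was -1.69. That median was -0.89 with no filter on dim probes and -2.67 with all kept probes of a gene averaged. The mesenchymal homeobox gene Prrx1 was at -7.20 ± 0.06 and the forkhead gene Foxc1 at -2.86 ± 0.05. Sox9 was at least 35.9-fold lower. Snai3, the remaining SNAIL family gene, was not well above background in the same RNA on all arrays.

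Corepressors and turnover factors act with or on SNAIL, TWIST and ZEB proteins. Of 18 measured genes of the corepressor list 4 were called higher and 3 lower, with a median of 0.06. So 7 of 18 were called, against 44.2% of all genes. The list was wider than corepressors in the strict sense, as it held the kinase gene Lats2. The CtBP corepressors of ZEB proteins went in opposite directions by less than 2-fold, with Ctbp1 at -0.66 ± 0.00 and Ctbp2 at 0.68 ± 0.01 (SD, n = 3). The Polycomb genes Ezh2 (1.73 ± 0.01) and Eed (1.13 ± 0.01) and the histone methyltransferase gene Suv39h1 (1.37 ± 0.03) were higher. A dimmer probe of Suv39h1 (0.70 ± 0.11) was not called. The lysyl oxidase gene Loxl2 (-5.37 ± 0.02) and the LIM protein gene Ajuba (-2.10 ± 0.10) were lower, and Lats2 was at least 2.00-fold lower. Among 7 measured turnover genes 3 were called lower, namely the phosphatase gene Ctdsp1 (-3.12 ± 0.10), Fbxl5 (-2.02 ± 0.03) and Pak1 (-1.15 ± 0.01), and 0 higher. Calls for 3 of 7 are close to the 44.2% of all genes called. Gsk3b, the kinase that marks SNAIL for degradation, was at -0.57 ± 0.01 and not called. Under median centring 9 corepressors were called higher.

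Epithelial genes, several of them known targets of EMT factors, were more often higher than lower. Of 20 measured genes, mostly junction and keratin genes, 10 were called higher and 2 lower, against 18.8% and 25.4% of all genes. The median of the 20 was 1.07, or 0.82 with genes dim in 1 RNA at their bounds. The size of that median rested on the filter: it was 0.23 with no filter on dim probes and 0.27 with both RNAs above background. Cdh1 had ratios of 3.11, 2.99 and 3.12, a mean of 3.08 ± 0.07 (SD, n = 3; limma adjusted p = 2.28e-06). Epcam was at 4.72 ± 0.13, with mix1 above background on 2 of 3 arrays, Krt18 at 3.42 ± 0.04, and the tight junction gene Ocln at 3.40 ± 0.17, with mix1 above background on 1 of 3. The desmosome genes Jup (-1.90 ± 0.02) and Pkp2 (-1.87 ± 0.05) were lower. When both RNAs had to be above background, 5 were called higher and 2 lower.

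Of the regulators that keep the epithelial state, 5 of 12 were measured, and 3 were called higher and 0 lower. Over all genes 18.8% were called higher and 25.4% lower. The median of the 5 regulators was 1.19, or 0.79 with bounds. With no filter on dim probes the median of the regulators was 0.13. Ovol2, a zinc finger repressor of Zeb1, was at 2.87 ± 0.04 (SD, n = 3). Grhl3 was at 1.19 ± 0.10, with mix1 above background on 1 of 3 arrays. Ehf, dim in mix1, had a bound of 1.73-fold higher, under the 2-fold that its fitted ratio passed. Mesenchymal effector genes had 20 of 22 measured called lower and 1 higher, with a median of -6.90. The collagen gene Col3a1 (-10.79 ± 0.16), the proteoglycan gene Dcn (-10.37 ± 0.10) and S100a4 (-8.90 ± 0.21) had the lowest fitted ratios from brightest probes among genes above background in both RNAs. Postn was at least 261-fold lower, and the intermediate filament gene Vim was at -5.26 ± 0.08. Cdh2, which encodes N-cadherin, was the 1 gene higher (1.17 ± 0.01), and that call ended with the GC trend taken off.

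**Figure D4:**
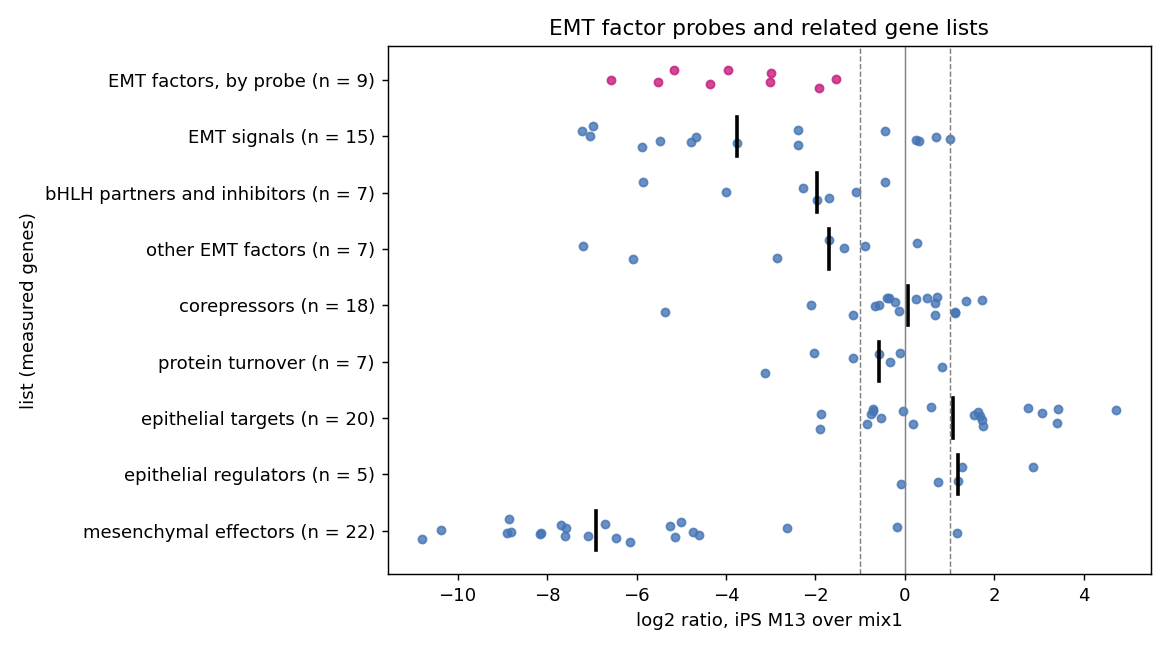
Log2 ratio of iPS M13 over mix1 of the 9 EMT factor probes and of the measured genes of 8 related lists, from the brightest kept probe of each gene; black bars mark list medians and dashed lines a 2-fold difference. All 9 probes lie left of the dashed line at -1, with the mesenchymal list (median -6.90) further left and both epithelial lists (medians 1.07 and 1.19, but 0.23 and 0.13 with no filter on dim probes) right of 0.

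Promoters of epithelial genes were read for the E-box CAGGTG, the form that SNAIL and ZEB factors bind, on both strands (CACCTG is the same motif on the other strand). The 250 bases before the start of 33469 rat genes came from RefSeq, build GRCr8. Of 26 genes of the epithelial list, mostly junction and keratin genes, 18 matched a promoter by symbol. Cdh1 had no match, so its promoter was not read. The motif was held by 14 of the 18 (77.8%), against 15.9% of all promoters. Those 18 promoters had a median GC content of 65.0%, against 51.2% for all. The motif was present in 5 of 7 matched genes called higher, in 1 of 1 called lower and in 5 of 6 not called. In other lists it was held by 3 of 10 matched mesenchymal effector genes and 2 of 5 matched epithelial regulators. Several genes of the epithelial list are known targets of EMT factors, so the share of that list with the motif is not independent of how its genes were chosen. The promoters of Epcam, Ocln and Crb3, a polarity gene at 2.76 ± 0.09 (SD, n = 3), are shown as examples of windows that hold 1, 2 and 3 motifs in genes called higher, with the motif in capitals. Krt18 and Marveld2, also called higher, held 0.
Epcam, chr6:12649679-12649928, minus strand: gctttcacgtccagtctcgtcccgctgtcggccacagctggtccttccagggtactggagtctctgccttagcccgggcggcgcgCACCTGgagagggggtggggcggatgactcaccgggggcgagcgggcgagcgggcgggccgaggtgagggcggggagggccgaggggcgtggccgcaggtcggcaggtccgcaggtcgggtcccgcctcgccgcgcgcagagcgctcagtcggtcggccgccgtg
Ocln, chr2:33441199-33441448, minus strand: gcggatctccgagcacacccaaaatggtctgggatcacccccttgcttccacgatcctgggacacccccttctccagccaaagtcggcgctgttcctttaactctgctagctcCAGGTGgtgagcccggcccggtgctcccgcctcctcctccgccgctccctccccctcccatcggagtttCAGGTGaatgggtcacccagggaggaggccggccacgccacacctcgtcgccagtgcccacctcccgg
Crb3, chr9:1987504-1987753, plus strand: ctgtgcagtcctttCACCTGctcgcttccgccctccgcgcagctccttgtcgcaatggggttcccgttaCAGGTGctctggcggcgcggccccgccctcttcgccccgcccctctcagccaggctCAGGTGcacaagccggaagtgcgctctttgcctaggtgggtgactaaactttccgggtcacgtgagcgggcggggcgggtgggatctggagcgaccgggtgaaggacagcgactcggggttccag
The window of Epcam held 1 such E-box, that of Ocln 2 and that of Crb3 3. Of the 5 EMT factors with a promoter in the table, Snai1 and Zeb1 held 1 each and Twist1, Twist2 and Zeb2 held 0. These matches describe letters in a window, and binding was not measured.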

How the data were processed

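Spot intensities were deposited as Agilent Feature Extraction 9.5.3.1 gave them, per the file headers, as mean signal and median local background with nothing subtracted. Processed intensities and log10 ratios (Cy5 over Cy3) in the same files had, per the file headers, already had background removed and dyes balanced. The authors' deposited value table held log2 ratios of unstated scale, direction and centring. Each column followed the log10 ratios of its array with a slope of -3.32 (r = -1.00 across probes), which fixes it as log2 of iPS M13 over mix1. Column medians were -0.041, -0.028 and -0.029. The median of all tested probes was 0.29 both from that value table and from the processed signals, so no further centring was seen. All 3 arrays lay on 1 slide, per the file headers.

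With limma 3.58.1 (R 4.3.3), signals had normexp correction (offset 50) and loess within arrays, giving control spots weight 0. Outlier spots (205, 263 and 192) were left out, none of them an EMT factor spot. A probe was kept if well above background in 1 channel on all 3 arrays, which 24178 were; on single arrays 53.5% to 60.8% of probes were well above background in Cy3 and 52.4% to 61.0% in Cy5. lmFit and eBayes tested the mean ratio against 0 for each probe. The number of arrays limits the precision.

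Names were updated through RefSeq by accession (10735 probes), symbol (5577), synonym (3730) or gene ID (1219); 19751 kept the deposited name. Named genes were all EMT factor probes, up to 3 genes called higher and 3 called lower with the most extreme ratios per list, 13 preset genes such as Cdh1 and Vim, and the 3 nearest genes of each factor; Crb3, Tcf3, Tcf12, Tgfbr1, Smad2, Smad4, Gsk3b, Snai3, Postn and Marveld2 were named after their values were seen. The members and lists were chosen with earlier results of these data known.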

Additional observations from a re-analysis of the deposited data

How the results depend on the processing

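In all 9 EMT factor probes the direction held under every alternative tested: other background offset, 3 other scalings, the processed signals, the authors' value table, other filters, outlier spots kept, GC trend taken off, and each replicate left out. The value table repeats the processed signals, so it is not a separate check. With both RNAs above background 7 of the 9 could be tested. Zeb2 alone lost its call, as given above. Aquantile scaling leaves ratios unchanged by construction. The number of all probes called higher moved from 4472 to 8797 under median centring, 8318 without normalization and 7483 with processed signals. It was 7482 with the value table and 11416 with no minimum fold (lower, 11794). Genes of the EMT signals list called higher, 1 as reported, were 3, 3, 2 and 2 in the first 4 of these settings. They were 0 with the GC trend taken off and 0 to 1 with a replicate left out. Corepressors called higher were 9 under median centring and 9 without normalization. Turnover genes called higher were 1 with an offset of 16, median centring, processed signals or the value table. Epithelial targets called lower were 4 with processed signals and 4 with the value table. With both channels above background, EMT signals were 0 higher and 4 lower, other EMT factors 3 lower, epithelial targets 5 higher and epithelial regulators 1 higher. Other EMT factors had 1 higher without the filter, and mesenchymal effectors 0 higher with the GC trend taken off. The cause of these changes was not tested. No paired analysis was possible because the labels give 1 group, beyond the ratio of each sample to mix1 on its own array, which all tests used.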

Other observations

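Snai1 was not the only gene of these lists whose probes disagreed; the genes given here were chosen after their values were seen. Foxc2, a forkhead factor of mesenchyme, was not called from its brightest probe (-0.89 ± 0.01, SD, n = 3), while its other probe was at -4.45 ± 0.19, with iPS M13 above background on 0 of 3 arrays there. The desmoplakin gene Dsp was at 1.69 ± 0.02 from its brightest probe and at 4.53 ± 0.12 from the other. The collagen gene Col1a1 was at -7.09 ± 0.19 and -7.15 ± 0.07 from one pair of probes and at -10.91 ± 0.13 from a further one. The receptor gene Tgfbr1 was not called from its brightest probe, and another of its probes was called higher (1.06 ± 0.00). For Foxc2 and Tgfbr1 the probe decided the call, as it did for the corepressor genes Suv39h1 and Hdac2. Another Suv39h1 probe was at 0.70 ± 0.11 and not called, with mix1 above background on 0 of 3 arrays. Another Hdac2 probe was called higher (1.30 ± 0.04), while its brightest probe (0.72 ± 0.02) was not called.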
